A study of Mus musculus with 20 samples.

Results

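The mitosis and cytokinesis genes described here are a fixed list of 58 genes: kinases that drive entry into mitosis, the spindle checkpoint, kinetochore proteins, kinesins, condensin and the machinery of cytokinesis. For a gene with several probe sets, the one with the highest average across the 20 arrays was used. 57 of the 58 genes were found by name among 18193 genes on the array, and 56 of them were among the 11859 genes that were bright enough to test. The gene without a probe set named for it alone was Ccnb1 (cyclin B1), which was not analysed here. The gene below the brightness filter was Mybl2.

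Lens RNA was measured on Affymetrix mouse arrays, 1 array per mouse with both lenses pooled, in 4 groups of 5 arrays. Control lenses were E2F2-/-, taken from embryos at E17.5 (late gestation) or from newborn pups at P0. Triple knockout (TKO) lenses were Cry-Cre E2F1-/- E2F2-/- E2F3f/f, at these 2 stages. All groups thus lacked E2F2. The Cry-Cre transgene, whose name points to a crystallin promoter, was present only in the TKO groups, so that E2F3 could be deleted only in cells where Cre had acted. The series asked which events come before the collapse of lenses that lack these E2F factors. All values are log2 expression as the authors deposited them, so 1 unit is a factor of 2. Arrays are listed in the order of their replicate numbers: 10, 11, 12, 13 and 15 for control E17.5, 24 to 28 for TKO E17.5, 1, 5, 6, 7 and 8 for control P0, and 17, 18, 19, 21 and 22 for TKO P0.

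In mitosis, Cdk1 bound to a B-type cyclin drives condensation of chromosomes and assembly of the spindle, and the spindle checkpoint holds back the anaphase promoting complex until every kinetochore is attached. Most genes of this set are transcribed late in the cell cycle through CHR and CCAAT elements in short promoters, which recruit the MuvB complex and the factor NF-Y. E2F proteins are best known for acting earlier, at the entry into S phase, though not only there. In the lens, the epithelium at the front holds the dividing cells, and cells that become fibres leave the cell cycle.

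The promoters of 6 members are shown because they cover both kinds of promoter in the set, those with CHR and CCAAT letters and those without, and members that did and did not change. The sequences are RefSeq's, build GRCm38.p6, from 150 bases before to 30 bases after the annotated start, 5′ to 3′ along the gene. Capitals mark matches, on either strand, to the CHR word TTTGAA, to the NF-Y word CCAAT and to the E2F words TTTGGCGC, TTTCCCGC, TTTGCCGC and TTTCGCGC. On the opposite strand CHR reads TTCAAA, and the NF-Y word reads ATTGG. Cdk1 lies at chr10:69352883-69353062 (- strand), Ccnb2 at chr9:70421525-70421704 (- strand), Ube2c at chr2:164769779-164769958 (+ strand), Cenpw at chr10:30200511-30200690 (- strand), Mad2l1 at chr6:66535071-66535250 (+ strand) and Espl1 at chr15:102296143-102296322 (+ strand).
Cdk1: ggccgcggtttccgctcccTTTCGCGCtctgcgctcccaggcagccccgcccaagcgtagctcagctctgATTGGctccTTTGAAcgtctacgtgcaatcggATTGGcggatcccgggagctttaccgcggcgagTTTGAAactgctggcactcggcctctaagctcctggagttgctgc
Ccnb2: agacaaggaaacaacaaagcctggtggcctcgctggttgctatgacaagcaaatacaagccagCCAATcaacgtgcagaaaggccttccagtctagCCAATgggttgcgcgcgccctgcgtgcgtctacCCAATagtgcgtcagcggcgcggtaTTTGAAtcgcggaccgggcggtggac
Ube2c: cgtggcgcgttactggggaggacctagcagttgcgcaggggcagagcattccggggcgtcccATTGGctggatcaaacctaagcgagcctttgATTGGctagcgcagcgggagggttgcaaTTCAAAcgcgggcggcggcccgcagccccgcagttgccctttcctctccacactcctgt
Cenpw: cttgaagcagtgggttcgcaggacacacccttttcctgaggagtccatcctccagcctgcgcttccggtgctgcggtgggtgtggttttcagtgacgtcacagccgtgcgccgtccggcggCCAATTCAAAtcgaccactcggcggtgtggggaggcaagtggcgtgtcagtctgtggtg
Mad2l1: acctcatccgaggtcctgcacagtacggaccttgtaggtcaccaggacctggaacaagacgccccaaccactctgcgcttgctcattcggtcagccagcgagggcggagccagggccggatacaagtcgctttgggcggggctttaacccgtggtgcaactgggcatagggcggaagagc
Espl1: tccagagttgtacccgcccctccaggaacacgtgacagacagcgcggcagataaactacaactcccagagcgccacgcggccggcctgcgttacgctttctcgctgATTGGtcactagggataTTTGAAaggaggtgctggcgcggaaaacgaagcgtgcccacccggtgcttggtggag
Cdk1, the central kinase of mitosis, had 2 CHR matches, at -71 and -15 from the annotated start, and an E2F word at -131. Ccnb2 (cyclin B2) had CCAAT at -87, -54 and -21 and a CHR match at 4. In Cenpw, a kinetochore gene, the CCAAT match at -29 ran into the CHR match at -25 and shared its last base with it. Mad2l1, a checkpoint gene, had none of these words, and Espl1 (separase) had CCAAT and CHR letters at -44 and -27.

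Promoters of 50 members were found in the RefSeq table. In the window from 250 bases before to 50 bases after the start, 33 of the 50 held a CHR match (66.0%, against 20.2% of 27025 genes with a promoter row and 14.0% of the 9603 tested genes with one). CCAAT was found in 37 of 50 (74.0%, against 41.1% and 43.1%), and both together in 29 of 50 (58.0%, against 9.0% and 6.9%). An E2F word was found in 4 of 50 (8.0%, against 2.6% and 4.7%), in Cdk1, Kif18a, Ncapg and Ncapd2. Of the 29 members with both CHR and CCAAT, 25 rose at P0 and 7 at E17.5 in the limma test described below, with median changes of 0.69 and 0.29. The 4 that did not rise at P0 were Espl1, Bub3, Racgap1 and Mki67. Of the 8 members with no match, 7 were tested, and 7 rose at P0 and 2 at E17.5 (medians 0.91 and 0.30), the 2 being Mad2l1 and Pttg1. The other 13 held some of the words but not CHR and CCAAT together, and of the 12 tested, 12 rose at P0 and 6 at E17.5 (medians 1.08 and 0.48). Over all tested genes, 17.1% rose at P0 and 5.54% at E17.5. A match describes letters only and shows no binding.

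The 15 lens markers found on the array lay above the array median in all 20 arrays, fibre genes as well as the epithelial genes Cdh1 and Pdgfra, although the labels name epithelial cells. At P0, Cdh1 fell by 1.94 and Pdgfra fell by 2.73 in TKO lenses (limma adjusted p = 0.000337 and 0.000246). In the same test Gja3 fell too (-0.42, adjusted p = 0.0306), whereas Pax6 was higher (0.41, adjusted p = 0.0469). Foxe3 had no call (-0.78, adjusted p = 0.0671). Over the lens list of newborns the median change was -0.02, and 11 of the 15 markers had no call in either direction. Probe sets for the deleted genes did not show the deletions: the brightest E2f1 probe set lay at 7.55 to 7.95 in TKO E17.5 against 7.15 to 7.24 in control, and at 7.62 to 7.91 against 7.15 to 7.52 at P0. The brightest E2f3 probe set overlapped between genotypes, at 8.02 to 8.54 against 8.33 to 8.60 at E17.5 and 7.83 to 8.22 against 7.89 to 8.10 at P0. The brightest E2f2 probe set, null in all groups, lay between 6.12 and 6.43. The sources used here do not place these probes inside or outside the deleted exons, so they check no label, and groups are named as labelled. Over the 11859 tested genes, TKO E17.5 replicates 24 and 27 were closer to E17.5 controls (mean r 0.985 and 0.990) than to their own group (0.969 and 0.972). Replicate 28 was the farthest from its own group (0.955). The Gapdh 5′ minus 3′ signal was higher in TKO lenses by 0.199 at E17.5 and 0.179 at P0 (exact permutation p = 0.00794 each, the smallest possible with 5 against 5, adjusted p = 0.0159 over 4 tests). The 18S signal was higher by 0.705 at E17.5 (exact permutation p = 0.0159, adjusted p = 0.0212) and differed by -0.378 at P0 (exact permutation p = 0.103). The part of RNA quality in the results below was not tested.

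At birth, most of these mitosis and cytokinesis genes stood higher in TKO lenses than in control lenses. Of the 56 tested members, 51 rose and none fell (limma, adjusted p below 0.05 over 11859 genes), where 17.1% of all tested genes rose. The median change of the members was 0.77, or 1.7-fold, against a median of -0.006 over all tested genes. In 34 of 56 members, the lowest TKO array lay above the highest control array, which held for 13.2% of all tested genes. The largest rises were those of Pttg1 (2.06), Cenpw (1.58), Cep55 (1.55), Ube2c (1.38), Cdk1 (1.34) and Cks2 (1.34). Markers of the neighbouring retina rose in the same arrays (14 of 16 tested, median 1.61), and with their mean as a covariate 23 members rose (5.82% of all tested genes), with a median change of the members of 0.49; the part of retinal RNA was not tested. In this lens RNA, which held transcripts of fibre as well as epithelial genes, a change in the number of dividing cells and a change in their RNA per cell cannot be told apart.

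At E17.5 the differences were smaller and fewer passed. 16 of 56 members rose and none fell, where 5.54% of all tested genes rose, and 52 of 56 changes were positive. The median change was 0.30, or 1.23-fold, against -0.029 over all tested genes. In 6 members, Bub1, Mad2l1, Cenpw, Cenpk, Cdc25c and Ube2c, all TKO arrays lay above all controls, which held for 4.0% of all tested genes. The E17.5 count moved with the arrays used. It was 4 without control replicate 10, 9 without 11, 11 without 12, 12 without 13 and 7 without 15. It was 21 without TKO replicate 24, 5 without 25, 7 without 26, 18 without 27 and 10 without 28. The number of all 11859 tested genes called in either direction moved too. It was 1541 in the main fit, 835 without control replicate 10 and 2502 without TKO replicate 27. With the E17.5 arrays fitted alone, 8 members rose (1.59% of all tested genes did), and with array weights 30 did (17.8% of all tested genes did). With the retina markers' mean as a covariate 4 members rose (3.40% of all tested genes, median of the members 0.18). These 4, Cenph, Cenpw, Mad2l1 and Pttg1, were called in every alternative that tested them. Cenph was dim, with means of 4.81 and 4.03 in E17.5 and P0 controls and 5.6 and 5.13 in TKO. Array medians lay between 5.05 and 5.25, so Cenph may have passed the brightness filter through TKO arrays, where it was higher.

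The difference between the effect at P0 and the effect at E17.5 passed the test in 0 of 56 members (limma), with 22 at an unadjusted p below 0.05, where 0.177% of all tested genes passed. It was positive in 55 members with a median of 0.48. With array weights 7 members passed, where 21.8% of all tested genes did, a larger share than that of the members. Without control P0 replicate 8, 2 members passed (0.169% of all tested genes). A larger effect at P0 than at E17.5 was therefore not shown for any member in the unweighted fit of all 20 arrays.

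**Figure D1:**
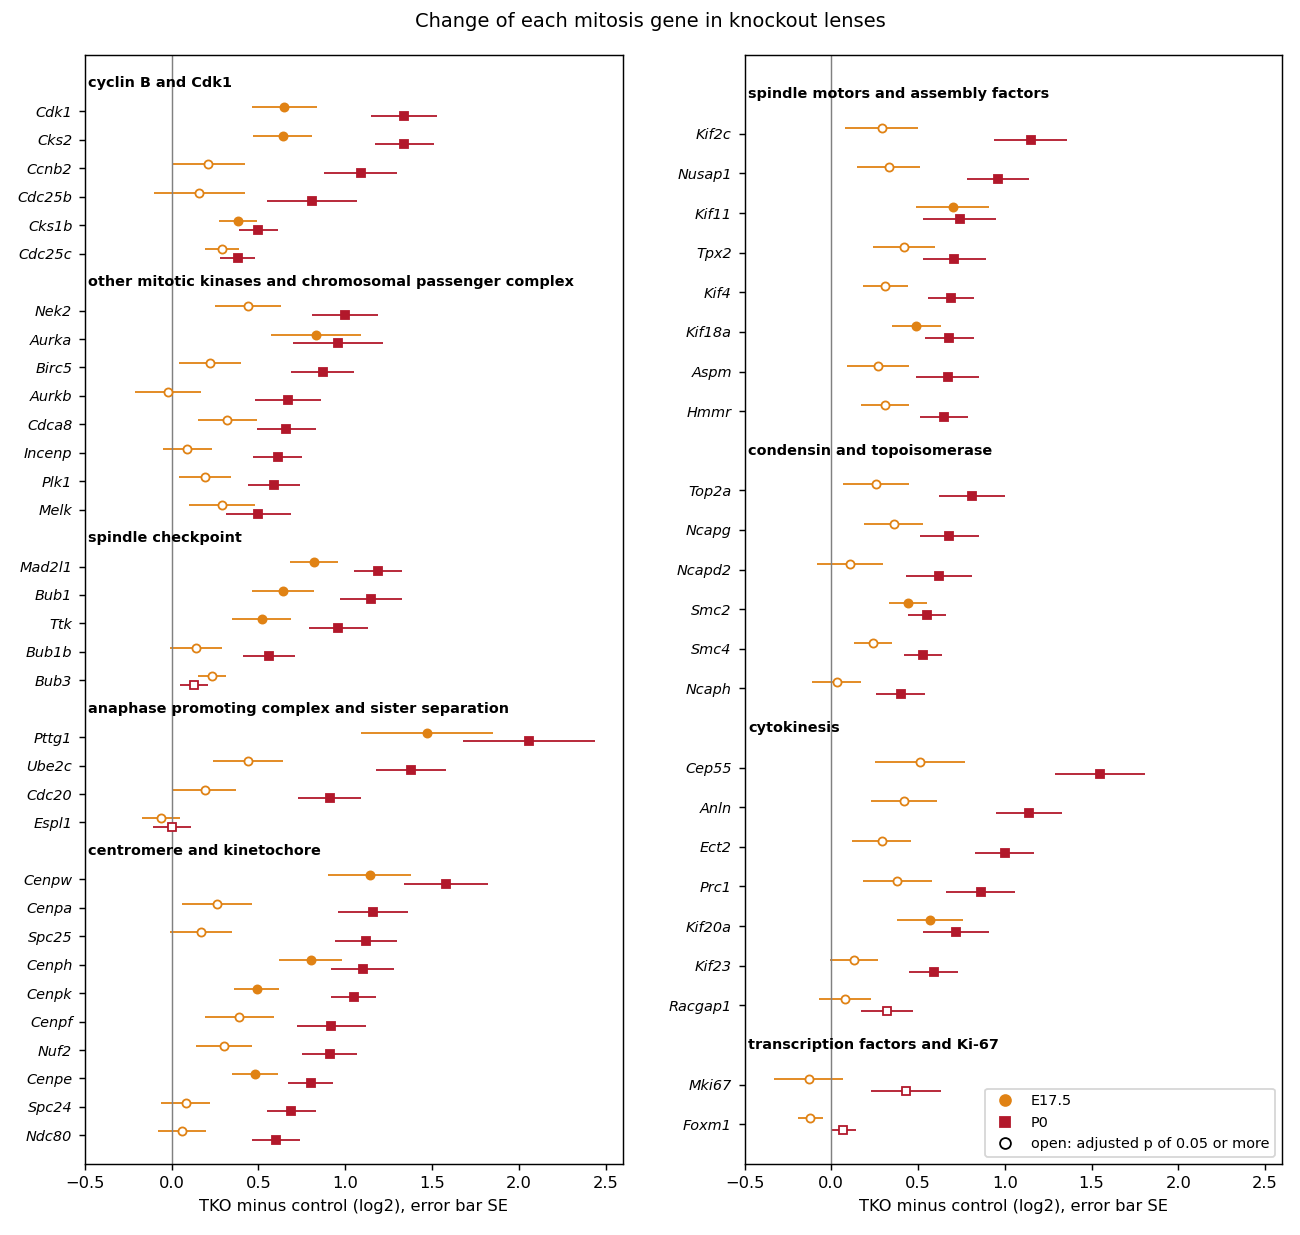
The plot gives the TKO minus control change (log2, horizontal axis, error bar SE) of the 56 tested members by sub-function, as circles for E17.5 and squares for P0, filled where the adjusted p was below 0.05. Filled squares number 51 and filled circles 16, and nearly all points lie right of 0.

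Among the B-type cyclin and Cdk1 genes, all 6 tested members rose at P0 (median 0.95) and 3 rose at E17.5 (median 0.33): Cdk1, Cks1b and Cks2, the last of which are small subunits that bind Cdk1. Cks2 had the smallest p of this group at P0. At P0 its control arrays read 8.31, 7.94, 8.15, 7.91 and 8.66 and its TKO arrays 9.47, 9.86, 9.42, 9.41 and 9.51. The groups did not overlap, with control replicate 8 the highest control and TKO replicate 18 the highest TKO array, and the change was 1.34 ± 0.17 (SE, limma adjusted p = 5.96e-05). At E17.5 its controls read 9.12, 9.41, 9.40, 9.48 and 9.17 and its TKO arrays 9.59, 10.33, 9.94, 9.48 and 10.43. Here TKO replicate 27 equalled the highest control at this precision, and the change was 0.64 ± 0.17 (adjusted p = 0.0222).

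Cdk1 went the same way. At P0 its controls read 7.22, 7.09, 6.63, 6.79 and 7.74 and its TKO arrays 8.33, 8.70, 8.16, 8.34 and 8.65, with no overlap and a change of 1.34 ± 0.19 (adjusted p = 0.000122). At E17.5 its controls read 8.25, 8.62, 8.60, 8.73 and 8.47 and its TKO arrays 8.85, 9.54, 9.24, 8.71 and 9.56. Only TKO replicate 27 lay inside the control range, and the change was 0.65 ± 0.19 (adjusted p = 0.0335). This E17.5 call held in 10 of 19 alternatives and was lost with the E17.5 arrays fitted alone (limma adjusted p = 0.0654). Ccnb2 rose at P0 by 1.09 ± 0.21 and had a change of 0.21 ± 0.21 at E17.5 (adjusted p = 0.499). The Cdc25 phosphatases, which activate Cdk1, rose at P0 by 0.81 ± 0.26 (Cdc25b) and 0.38 ± 0.10 (Cdc25c).

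The other mitotic kinases and the chromosomal passenger complex, which corrects wrong attachments to the spindle, rose at P0 in 8 of 8 members (median 0.67). At E17.5 only Aurka, a kinase of the spindle poles, passed (0.83 ± 0.26, adjusted p = 0.0410), and its lowest TKO array was replicate 24 at 7.08 against 7.89 to 8.19 in the others. This call held in 10 of 19 alternatives and was lost whenever 1 E17.5 control was left out. Nek2, a centrosome kinase, had the smallest p at P0. Its P0 controls read 4.80, 4.98, 4.97, 4.55 and 5.70 and its TKO arrays 5.92, 6.06, 5.80, 6.01 and 6.23, so that only control replicate 8 came near the TKO range. Nek2 rose by 1.0 ± 0.19 (adjusted p = 0.000807). In embryos its controls read 5.81, 5.91, 5.90, 6.12 and 5.96 and its TKO arrays 6.24, 6.93, 6.71, 6.05 and 5.94, with overlap and a change of 0.44 ± 0.19 (adjusted p = 0.118). Birc5 (survivin), Aurkb, Incenp and Cdca8, the 4 subunits of the passenger complex, rose at P0 by 0.61 to 0.87, and none passed at E17.5, where their changes ran from -0.02 to 0.32. Plk1 rose by 0.59 ± 0.15 at P0. Melk was the weakest call (0.50 ± 0.19, adjusted p = 0.0488), and it held in only 6 of 18 alternatives.

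In the spindle checkpoint, 4 of 5 members rose at P0 (median 0.96) and 3 at E17.5 (median 0.52). Mad2l1 encodes Mad2, which binds and holds the Cdc20 activator, and it had the smallest adjusted p of the whole set at both stages. Its E17.5 controls read 7.68, 7.81, 7.87, 7.85 and 7.63 and its TKO arrays 8.22, 8.95, 8.67, 8.17 and 8.95. Its P0 controls read 7.05, 6.98, 6.94, 6.86 and 7.43 and its TKO arrays 8.19, 8.42, 8.17, 8.13 and 8.27. Every TKO array lay above every control of its stage, replicates 24 and 27 included, and every P0 TKO array lay above every E17.5 control as well. Mad2l1 rose by 0.82 ± 0.14 in the embryos (adjusted p = 0.00204) and by 1.19 ± 0.14 in the newborns (adjusted p = 3.56e-05). Bub1, a kinase that recruits checkpoint proteins to kinetochores, read 6.78, 7.08, 7.15, 7.29 and 7.13 in E17.5 controls and 7.49, 8.15, 7.78, 7.47 and 7.76 in TKO. At P0 it read 5.43, 5.30, 5.40, 5.12 and 6.29 in controls and 6.53, 6.61, 6.46, 6.67 and 7.02 in TKO. Neither stage had overlap, although control P0 replicate 8 stood 0.86 above the next control. Bub1 rose by 0.64 ± 0.18 (adjusted p = 0.0249) and 1.15 ± 0.18 (adjusted p = 0.000233). Ttk (Mps1), which starts the checkpoint signal, rose at both stages by 0.52 ± 0.17 and 0.96 ± 0.17. Its E17.5 call held in only 6 of 18 alternatives and was lost whenever 1 E17.5 control was left out.

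Bub3, which carries Bub1 to the kinetochore and has roles outside mitosis, did not pass at either stage. It read 10.15, 10.29, 10.23, 10.20 and 10.30 in P0 controls and 10.24, 10.41, 10.29, 10.45 and 10.43 in TKO. The groups overlapped, and the P0 change lay between -0.05 and 0.30 (95% CI, limma adjusted p = 0.239). At E17.5 its controls read 10.35, 10.46, 10.43, 10.52 and 10.47 and its TKO arrays 10.45, 10.79, 10.69, 10.49 and 10.97 (0.23 ± 0.08, adjusted p = 0.0622).

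Of the 4 genes of the anaphase promoting complex and sister separation, 3 rose at P0 (median 1.14). Ube2c, the ubiquitin-conjugating enzyme of the complex, read 6.37, 6.22, 6.34, 5.85 and 7.38 in P0 controls and 7.65, 7.88, 7.52, 7.83 and 8.17 in TKO. Control replicate 8 stood apart from the other controls but below all TKO arrays, and Ube2c rose by 1.38 ± 0.20 (adjusted p = 0.000156). At E17.5 it read 7.82, 8.06, 8.18, 8.27 and 8.0 in controls and 8.38, 8.92, 8.56, 8.35 and 8.34 in TKO, without overlap, yet with an adjusted p of 0.139 for a change of 0.44 ± 0.20. Cdc20, the activator that the checkpoint holds back, rose at P0 by 0.91 ± 0.18 (0.19 ± 0.18 at E17.5, adjusted p = 0.490).

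Pttg1 (securin), the inhibitor of separase, had the largest change of the set. At E17.5 it read 8.52, 8.56, 10.29, 8.88 and 8.68 in controls and 10.86, 10.24, 10.16, 10.13 and 10.86 in TKO. At P0 it read 7.77, 7.78, 7.67, 9.92 and 8.28 in controls and 10.25, 10.16, 10.18, 10.90 and 10.21 in TKO. A single control at each stage, replicate 12 and replicate 7, stood far above the other 4 and near or within the TKO range. The changes were 1.47 ± 0.38 (adjusted p = 0.0180) and 2.06 ± 0.38 (adjusted p = 0.00066), and a second, dimmer probe set gave 0.84 and 1.46. Espl1, separase itself, did not differ detectably. Its P0 controls read 6.31, 6.52, 6.32, 6.40 and 6.50 and its TKO arrays 6.21, 6.43, 6.38, 6.34 and 6.69, its E17.5 controls 7.10, 6.65, 6.75, 6.78 and 6.88 and its TKO arrays 6.82, 6.90, 7.06, 6.69 and 6.39. Both pairs of groups overlapped, with a P0 change between -0.24 and 0.23 (95% CI, adjusted p = 0.983).

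All 10 centromere and kinetochore genes rose at P0 (median 0.99), and 4 rose at E17.5 (median 0.34): Cenpe, Cenph, Cenpk and Cenpw. Cenpk, a subunit of the inner kinetochore network, had the smallest p of the group at P0. It read 6.58, 6.17, 6.22, 5.96 and 6.60 in P0 controls and 7.31, 7.56, 7.46, 7.03 and 7.43 in TKO, and 7.01, 6.88, 7.06, 7.33 and 7.23 in E17.5 controls against 7.45, 7.89, 7.72, 7.35 and 7.57 in TKO. There was no overlap at either stage, by only 0.02 at E17.5, and the changes were 1.05 ± 0.13 (adjusted p = 5.96e-05) at P0 and 0.49 ± 0.13 (adjusted p = 0.0234) at E17.5. Cenpw, a histone-fold protein of the same network, was dim in controls. It read 4.75, 4.47, 4.45, 4.22 and 4.69 in P0 controls and 6.21, 6.69, 6.20, 5.30 and 6.08 in TKO, and 5.28, 5.24, 5.54, 5.62 and 5.40 in E17.5 controls against 6.21, 6.76, 6.74, 5.73 and 7.32. The groups stayed apart at both stages, with TKO replicates 27 and 21 the lowest of their groups, and the changes were 1.14 ± 0.24 (adjusted p = 0.00772) and 1.58 ± 0.24 (adjusted p = 0.000212).

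The 4 subunits of the Ndc80 complex, the main coupler of kinetochores to microtubules, all rose at P0, by 0.60 ± 0.14 (Ndc80), 0.91 ± 0.16 (Nuf2), 0.69 ± 0.14 (Spc24) and 1.12 ± 0.18 (Spc25). None passed at E17.5, where their changes were 0.06, 0.30, 0.08 and 0.17. Cenpa, the centromeric histone, showed the same (1.16 ± 0.20 at P0, 0.26 ± 0.20 at E17.5).

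The spindle motors and assembly factors rose at P0 in 8 of 8 members (median 0.70) and at E17.5 in 2, the kinesins Kif11 (0.70 ± 0.21, adjusted p = 0.0326) and Kif18a (0.49 ± 0.14, adjusted p = 0.0270). On its brightest probe set Kif11, the motor that pushes spindle poles apart, rose by about the same at P0 (0.74 ± 0.21). Its dimmer probe sets changed by 0.26 (limma adjusted p = 0.336) and 0.15 (adjusted p = 0.619) at E17.5. At P0 they rose by 0.61 (adjusted p = 0.0145) and 0.54 (adjusted p = 0.0433). With the mean of its probe sets, Kif11 did not pass at E17.5. Nusap1, which bundles spindle microtubules, had the smallest p at P0. It read 6.49, 6.25, 6.25, 5.73 and 6.83 in P0 controls and 7.17, 7.36, 6.92, 7.52 and 7.39 in TKO, without overlap (0.96 ± 0.18, adjusted p = 0.000646). In E17.5 lenses it read 7.16, 7.69, 7.58, 7.79 and 7.47 in controls and 7.50, 8.25, 7.98, 7.86 and 7.77 in TKO, with overlap (0.33 ± 0.18, adjusted p = 0.196). Kif2c, which takes microtubules apart at the centromere, rose most at P0 (1.15 ± 0.21), with control replicate 8 at 6.10 above the lowest TKO array at 5.91.

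Condensin and topoisomerase genes, which compact and untangle chromosomes, rose in 6 of 6 members at P0, with the smallest median of the sub-functions that had a call (0.59). Smc2, the core subunit, read 7.86, 7.69, 7.74, 7.46 and 7.98 in P0 controls and 8.16, 8.41, 8.15, 8.36 and 8.41 in TKO. It read 8.11, 8.48, 8.29, 8.38 and 8.31 in E17.5 controls and 8.55, 9.01, 8.82, 8.43 and 8.92 in TKO, where only replicate 27 fell within the control range. It was the single member of this group that passed at both stages (0.55 ± 0.11, adjusted p = 0.00130, and 0.44 ± 0.11, adjusted p = 0.0180). Its dimmer probe sets differed from this: they changed by 0.12 (adjusted p = 0.384) and 0.08 (adjusted p = 0.717) at P0 and by 0.15 (adjusted p = 0.317) and 0.48 (adjusted p = 0.0430) at E17.5. With the mean of its probe sets, Smc2 did not pass at E17.5. Top2a rose at P0 by 0.81 ± 0.19 and the condensin subunits Smc4, Ncapd2, Ncapg and Ncaph by 0.40 to 0.68.

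Of the 7 cytokinesis genes, 6 rose at P0 (median 0.86), and Kif20a passed at E17.5 (0.57 ± 0.19, adjusted p = 0.0470). The E17.5 call of Kif20a held in only 7 of 18 alternatives and was lost whenever 1 E17.5 control was left out. Anln (anillin), a scaffold of the contractile ring, read 4.71, 4.80, 4.34, 4.47 and 5.39 in P0 controls and 5.86, 6.09, 5.84, 5.62 and 6.01 in TKO, without overlap (1.14 ± 0.19, adjusted p = 0.000327). In embryos it read 5.88, 6.25, 6.33, 6.53 and 6.21 in controls and 6.14, 7.04, 7.03, 6.43 and 6.68 in TKO, with overlap (0.42 ± 0.19, adjusted p = 0.127). Cep55, which starts the final cut between daughter cells, rose by 1.55 ± 0.26 and Ect2, which activates RhoA at the division plane, by 1.0 ± 0.17 at P0. Racgap1, the partner of Kif23 in the centralspindlin complex, did not pass. It read 6.90, 6.83, 6.88, 6.89 and 7.28 in P0 controls and 7.23, 7.22, 7.11, 7.29 and 7.53 in TKO, where control replicate 8 alone lay in the TKO range, with a change of 0.32 ± 0.15 (adjusted p = 0.103). At E17.5 it read 7.23, 7.26, 7.42, 7.57 and 7.39 in controls and 7.65, 7.76, 7.65, 7.48 and 6.73 in TKO, where replicate 28 was far below the rest (0.08 ± 0.15, adjusted p = 0.753). Its partner Kif23 rose at P0 by 0.59 ± 0.14.

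Neither of the tested transcription factor and Ki-67 genes passed at any stage. Foxm1, a factor that drives mitotic genes, read 6.48, 6.34, 6.38, 6.39 and 6.36 in P0 controls and 6.54, 6.39, 6.37, 6.55 and 6.47 in TKO, a change between -0.08 and 0.22 (95% CI, adjusted p = 0.446). At E17.5 it read 6.56, 6.61, 6.48, 6.67 and 6.42 in controls and 6.29, 6.67, 6.32, 6.40 and 6.47 in TKO (-0.12 ± 0.07, adjusted p = 0.252). Its groups overlapped at both stages. Mki67, the gene of the proliferation antigen Ki-67, read 7.46, 7.39, 7.36, 7.0 and 8.16 in P0 controls and 7.53, 7.93, 7.72, 8.04 and 8.31 in TKO (0.43 ± 0.20, adjusted p = 0.0976), and control replicate 8 lay above all but 1 TKO array. The E17.5 arrays read 8.39, 8.63, 8.45, 8.89 and 8.50 in controls and 7.97, 9.03, 8.55, 8.28 and 8.36 in TKO, with TKO arrays on both sides of the controls (-0.13 ± 0.20, adjusted p = 0.674). Mybl2 (B-Myb), which joins MuvB to switch on mitotic promoters, lay below the array median in all 20 arrays, at 4.38 to 5.21, and was not tested.

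**Figure D2:**
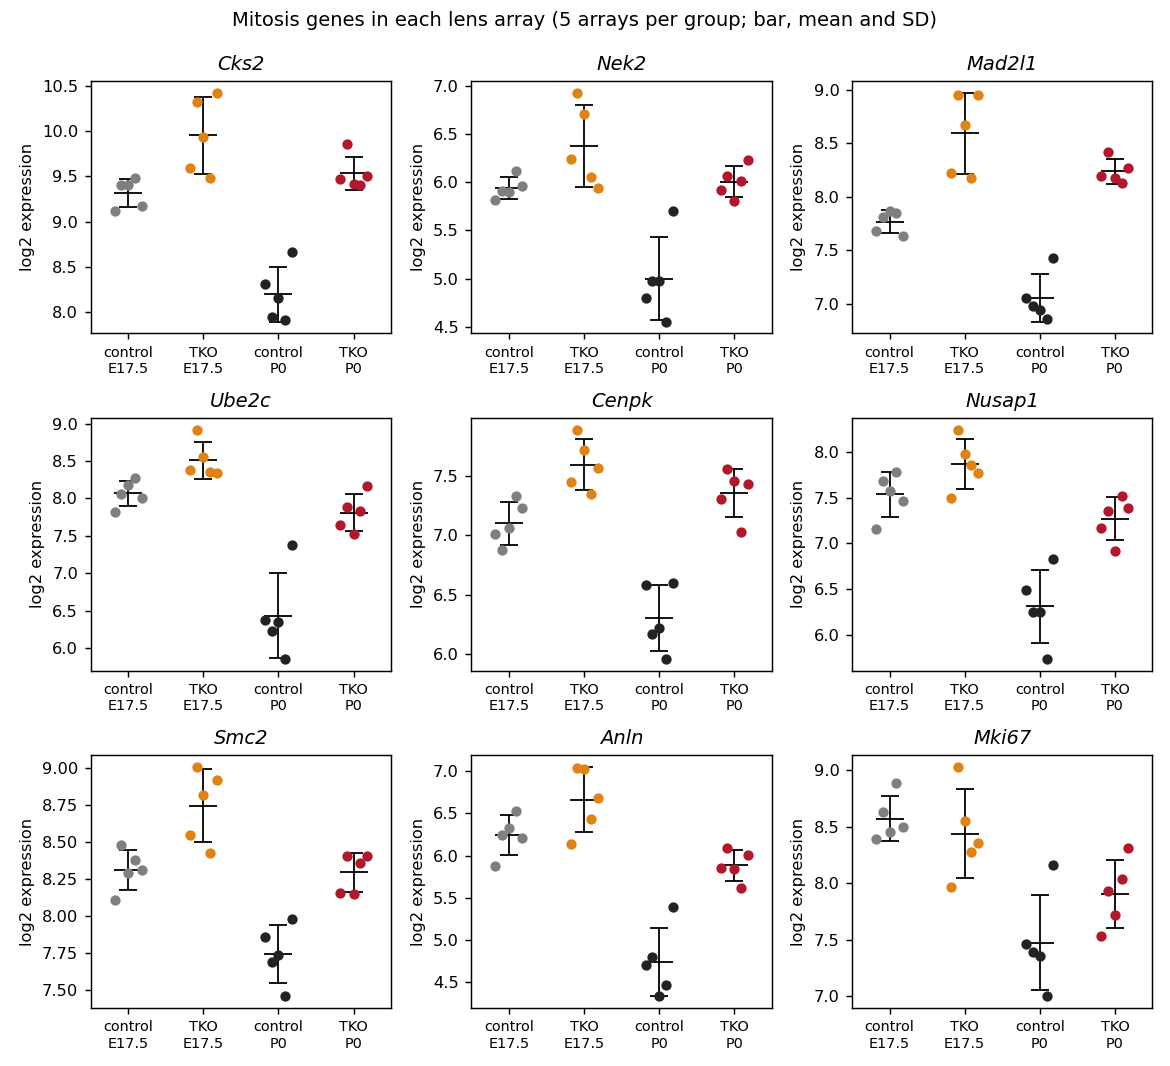
Each panel plots log2 expression of the member with the smallest P0 p of a sub-function, 1 point per array and 5 arrays per group, with a bar at the mean and SD. TKO P0 arrays lie above all control P0 arrays in each panel but that of Mki67, and TKO E17.5 arrays lie above all E17.5 controls only for Mad2l1, Ube2c and Cenpk.

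Between the stages, the mitotic genes went down in lenses of both genotypes. In control lenses 51 of 56 members fell from E17.5 to P0 with a median change of -0.96 (limma, 12.3% of all tested genes fell, median -0.037), and in 48 of 56 every P0 array lay below every E17.5 array (17.2% of all tested genes). Cep55 fell by 1.89, Ube2c by 1.63 and Bub1 by 1.58. Over the same interval in control lenses, retina markers had a median change of -0.75 (13 of 16 negative, 2 passed) and macrophage markers one of -0.82 (8 of 8 negative, 0 passed, 3 at an unadjusted p below 0.05), and their part in the members' fall was not tested. In TKO lenses 37 of 56 fell with a median change of -0.46 (18.9% of all tested genes fell), and 15 of 56 had no overlap (7.02% of all tested genes). With the TKO arrays fitted alone 23 fell (8.77% of all tested genes), and without TKO E17.5 replicate 25, 24 did. In that last fit 3264 of 11859 tested genes passed in either direction, against 3940 in the main fit. The fall was smaller in TKO than in control lenses in 55 of 56 members, all but Bub3. This compares the same values as the difference of effects given above, in which 0 of 56 members passed. The largest such differences were those of Cep55 (1.04 ± 0.37, adjusted p = 0.196), Spc25 (0.95 ± 0.26, adjusted p = 0.116) and Ube2c (0.94 ± 0.29, adjusted p = 0.148).

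In most members, newborn TKO lenses lay near or below the younger controls. The TKO P0 mean lay below the control E17.5 mean in 42 of 56 members and within 0.5 of it in 50, with a median difference of -0.20. In 38 members the 4 group means ran in the order TKO E17.5, control E17.5, TKO P0 and control P0. Spc25, for example, had means of 7.75 in control E17.5, 7.92 in TKO E17.5, 6.63 in control P0 and 7.75 in TKO P0. Of the members whose TKO P0 mean lay above the control E17.5 mean, Pttg1, Cenpw and Mad2l1 stood highest, by 1.35, 0.68 and 0.47. Kif4 (0.34) and Cenph (0.32) came next.

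**Figure D3:**
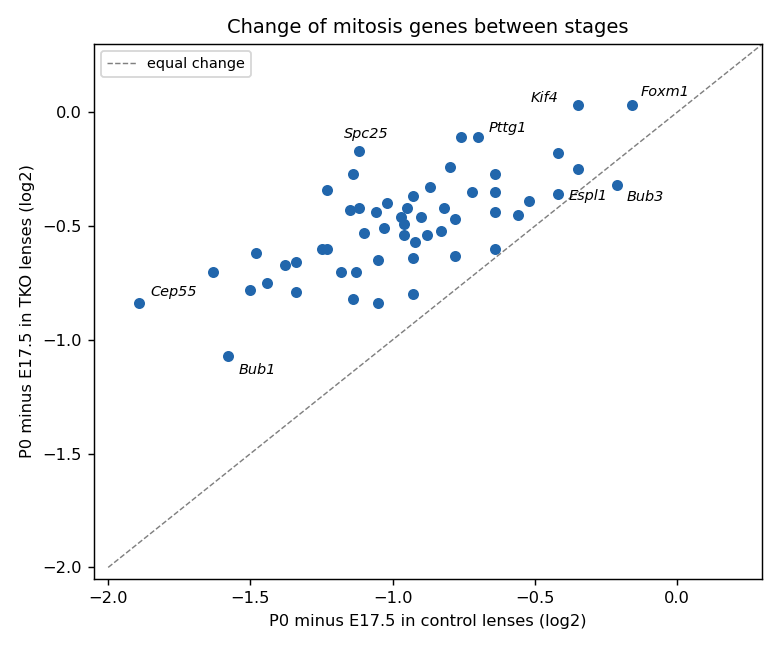
Each point is 1 of the 56 tested members, with its P0 minus E17.5 change of the group means (log2) in control lenses on the horizontal and in TKO lenses on the vertical axis, and a dashed line where both are equal. 55 points lie above the line, and Bub3 lies below it.

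The arrays of a group were not alike, and the retina markers moved with the mitosis genes in the TKO E17.5 arrays. For each array, the members' deviation from the control mean of its stage was taken and its median given. In TKO E17.5 it was -0.01 in replicate 24, 0.78 in 25, 0.49 in 26, 0.10 in 27 and 0.28 in 28, and 17, 53, 50, 13 and 30 of 56 members lay above the highest control. Retina markers deviated in the same arrays by -0.49, 1.82, 1.62, 0.03 and 0.63. In TKO P0, all 5 arrays were high for the members (0.67, 0.99, 0.59, 0.81 and 0.91) and for the retina markers (1.29, 1.94, 1.17, 1.95 and 1.12). Control P0 replicate 8 was high for the members (0.42) and low for the retina markers (-0.26), and replicate 7 was low for both (-0.30 and -0.66).

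Of 20 retina markers, 17 were on the array and 16 were tested. At E17.5, 0 of the 16 passed in limma, 1 had an unadjusted p below 0.05 and the median was 0.82. Their mean level ran from 5.80 to 6.72 in control E17.5, 5.87 to 8.0 in TKO E17.5, 4.79 to 6.29 in control P0 and 6.59 to 7.60 in TKO P0. Rcvrn, a photoreceptor gene, lay below the array median in every array, and 15 of the 17 lay above it in all TKO P0 arrays, against 5 in control P0. The 23 members that rose at P0 with the retina covariate held 7 of the 10 centromere and kinetochore genes, 4 of 6 of the cyclin B and Cdk1 group (Ccnb2, Cdc25c, Cdk1 and Cks2), 3 of 5 checkpoint genes, 2 of 4 genes of sister separation (Pttg1 and Ube2c), 3 of 8 spindle genes, 3 of 7 cytokinesis genes (Anln, Cep55 and Ect2), 1 of 8 other kinases and passenger genes (Nek2) and 0 of the 6 condensin and topoisomerase genes. The median change in that fit was 0.66 for the centromere and kinetochore genes, 0.64 for the cyclin B and Cdk1 group, 0.49 for the checkpoint, 0.88 for sister separation, 0.50 for spindle and for cytokinesis genes, 0.49 for the other kinases and passenger genes and 0.27 for condensin and topoisomerase. Whether the sub-functions differed was not tested. Cdc25b changed by -0.01 at P0 in that fit. Pigment cell markers rose at P0 in 6 of 8 tested (median 1.75), where 17.1% of all tested genes rose, and at E17.5 0 of 8 passed in limma and 0 had an unadjusted p below 0.05 (median 0.38). By array they deviated by -0.60, 0.93, 0.81, -0.78 and 1.23 in TKO E17.5 replicates 24 to 28 and by 0.70 to 1.76 in TKO P0, so that replicates 24 and 27 were low for them too; Rpe65 and Gpr143 lay below the array median in every array. Macrophage markers rose at P0 in 2 of 8 tested (median 0.90), with Cd68 and Ptprc below the array median in every array, and of 12 endothelium and pericyte markers 0 rose and 1 fell (median -0.27). The part of these cell types in the members' changes was not tested.

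**Figure D4:**
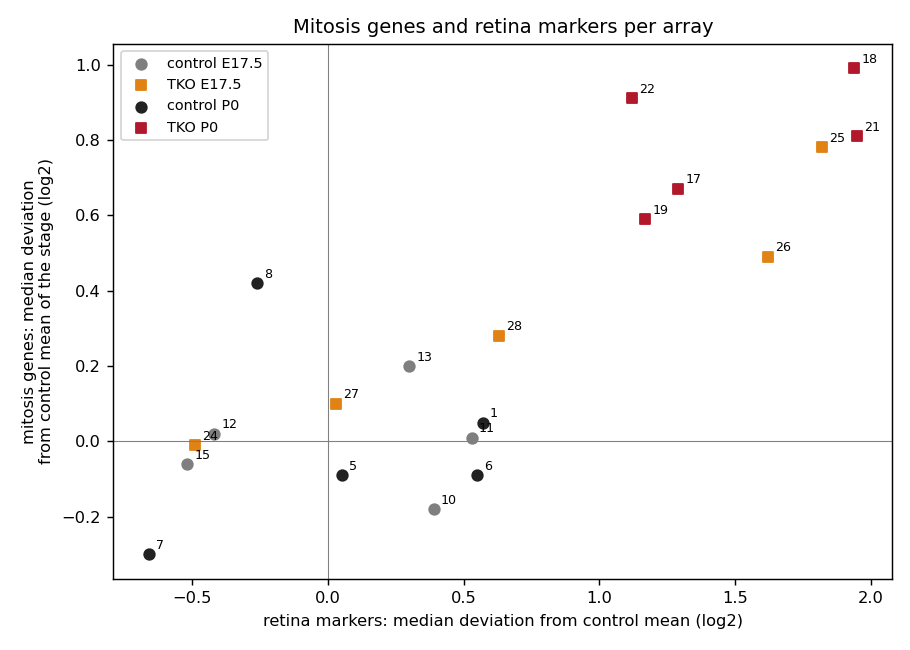
Each point is 1 of 20 arrays, labelled with its replicate number, with the median deviation of the retina markers from the control mean of the stage (log2) on the horizontal and that of the mitosis genes on the vertical axis. All TKO P0 arrays and TKO E17.5 replicates 25 and 26 lie at the upper right, TKO E17.5 replicates 24 and 27 lie within the range of the controls, and control P0 replicate 8 is high for the mitosis genes alone.

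A wider list of 86 further mitosis genes, of which 77 were tested, is given for context. At P0 34 of the 77 rose, 1 fell and 42 did not pass (median 0.27), where 17.1% of all tested genes rose. At E17.5 14 rose and 2 fell (median 0.15), where 5.54% of all tested genes rose. The smallest p-values among those that rose at P0 were those of Ube2s, a ubiquitin enzyme of the anaphase promoting complex (from 11.22 to 11.95, 0.73 ± 0.10, adjusted p = 0.00012), Plk4, the kinase of centriole duplication (from 5.75 to 6.85, 1.10 ± 0.16, adjusted p = 0.000147) and Cenpi, an inner kinetochore gene (from 4.56 to 5.44, 0.88 ± 0.13, adjusted p = 0.000196). Lin54, the subunit of MuvB that binds CHR, was the one that fell, from 6.81 to 6.55 (-0.26 ± 0.09, adjusted p = 0.0274). Next in that direction were Cenpt (-0.11 ± 0.08, adjusted p = 0.310) and Stil (-0.15 ± 0.13, adjusted p = 0.395), which did not pass. The genes that fell at E17.5 were Troap (-0.28 ± 0.07, adjusted p = 0.0123) and Cenpt (-0.29 ± 0.08, adjusted p = 0.0277).

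Other probe sets of the members were tested in a separate fit of single probe sets. 40 members had more than 1, and 33 of their 75 other probe sets passed the filter. Of these, 21 rose and 0 fell at P0, and 5 rose and 1 fell at E17.5. The share of all probe sets that rose in that fit was not computed, so these counts have no background. The one that fell was the dimmest probe set of Bub1b (-0.31 ± 0.10, adjusted p = 0.0465), whose brightest probe set had a change of 0.14. For Racgap1 the second probe set changed by -0.05 at P0, against 0.32 for the first, and for Foxm1 by 0.09, against 0.07.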

How the data were processed

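The authors deposited log2 expression values for 45101 probe sets in 20 arrays. The scale was read from the values; how the authors corrected background and normalized is not stated in the labels, and array medians lay between 5.05 and 5.25. The platform annotation named 1 gene for 34945 probe sets, and symbols were updated through a RefSeq table. A gene was tested when its brightest probe set lay above the array median in at least 5 arrays. For changes, limma 3.58.1 in R 4.3.3 was used (1 mean per group, 16 residual degrees of freedom, eBayes, two-sided, Benjamini-Hochberg over 11859 genes). P-values measure the spread between mice, whose litters and batches the labels do not give, and 5 arrays a group limit the precision. The fit was tested on simulated data.

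Members and lists were chosen with earlier results of these data known. Printed in full were the smallest P0 p of each sub-function, members without overlap called at E17.5 and members not called at P0, plus, of the further mitosis genes, the 3 smallest p in each direction. Cdk1, Pttg1 and the other members named were added after their values were seen. Alternatives changed the normalization, filter, probe set rule, arrays in the fit, array weights, variance trend and a retina marker covariate, and left out each array in turn.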

Additional observations from a re-analysis of the deposited data

Results flagged for a closer look

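In 15 of 228 groups of 5 arrays, 1 array stood far from the other 4 by Dixon's criterion, which chance alone does in about 1 of 20 groups. Of these, 2 were in control E17.5, 3 in TKO E17.5, 7 in control P0 and 3 in TKO P0. Control P0 replicate 8 was the high array for Ccnb2 (7.02, others 5.61 to 6.0), Plk1 (6.59, others 5.83 to 6.04), Bub1 (6.29, others 5.12 to 5.43), Kif11 (5.94, others 5.03 to 5.29), Kif2c (6.10, others 4.83 to 5.05) and Racgap1 (7.28, others 6.83 to 6.90). Pttg1 had a high array in 3 groups, control E17.5 replicate 12 (10.29, others 8.52 to 8.88), control P0 replicate 7 (9.92, others 7.67 to 8.28) and TKO P0 replicate 21 (10.90, others 10.16 to 10.25). TKO P0 replicate 18 was high for Cks2 (9.86, others 9.41 to 9.51) and Ncaph (7.74, others 7.34 to 7.39). Cdca8 was high in control E17.5 replicate 13 (9.41, others 9.17 to 9.20) and Mybl2 in TKO E17.5 replicate 25 (5.13, others 4.53 to 4.63). Aurka was low in TKO E17.5 replicate 24 (7.08, others 7.89 to 8.19) and Racgap1 in TKO E17.5 replicate 28 (6.73, others 7.48 to 7.76).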

How the results depend on the processing

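Members called were counted again under each alternative. Numbers of tested genes that passed are in either direction. Members that rose or fell are counted in 1 direction, so those numbers are not a like share for them. At E17.5 the 16 risen members became 10 with the stricter filter, which tested 30 members. There 1221 of 7302 tested genes passed, against 1541 of 11859 in the main fit. The 16 became 8 with the E17.5 arrays alone (where 1.59% of all tested genes rose) and 30 with array weights (17.8% rose). With the retina covariate they became 4 (3.40% rose). Leaving out an array gave 4 to 21, where 835 to 2502 tested genes passed. At P0 the 51 became 27 of 30 with the stricter filter. There 3105 of 7302 tested genes passed, against 4080 of 11859 in the main fit. With the retina covariate the 51 became 23, where 5.82% of all tested genes rose. Leaving out an array gave 48 to 52, where 3058 to 4275 tested genes passed. For the difference of effects, 0 became 7 with array weights (where 21.8% of all tested genes passed) and 0 to 2 when an array was left out. In those fits without 1 array, 0 to 321 tested genes passed, against 21 in the main fit. The 51 that fell in control lenses became 28 of 30 with the stricter filter, where 1616 of 7302 tested genes passed. Leaving out an array gave 48 to 52, where 1413 to 1878 tested genes passed. The 51 became 47 with the retina covariate (1510 tested genes passed), 53 with array medians centred (1972 passed) and 55 with array weights. With array weights 5088 of 11859 tested genes passed in either direction, against 2046 in the main fit. The 37 that fell in TKO lenses became 18 of 30 with the stricter filter, where 2325 of 7302 tested genes passed. They became 29 with quantile normalization (3731 tested genes passed) and 23 with the TKO arrays alone (8.77% of all tested genes fell). Leaving out an array gave 24 to 42, where 3012 to 4956 tested genes passed. The 37 became 43 with array medians centred (3895 passed), 44 with the retina covariate (4162 passed) and 48 with array weights. With those weights 6388 of 11859 tested genes passed in either direction, against 3940 in the main fit. The cause of the changes with weights and covariate was not tested. Over all alternatives, values of called members kept the call 206 times and lost it 90 times at E17.5, and at P0 kept it 894 times, lost it 44 times with the direction kept and 1 time with the direction turned. That 1 was Cdc25b at P0, whose change became -0.01 with the retina covariate. No paired analysis was possible because the groups share no replicate numbers. Litters and batches are unknown.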
